A study of Mus musculus with 8 samples.

Results

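The 9 genes described here belong to the interferon and cytokine signalling machinery: the STAT transcription factors Stat2 and Stat3, the interferon regulatory factors Irf1, Irf7, Irf8 and Irf9, the suppressors of cytokine signalling Socs1 and Socs3, and the kinase Jak2. They were taken by name from the count table, which lists 55414 genes, and all 9 passed the filter on low counts that left 10707 genes for testing. The cells were Paneth cells (PCs), the antimicrobial secretory cells of the small intestinal crypt, sorted from mice (C57BL/6J per the methods). The 8 libraries each came from 1 mouse: 4 mice drank Milli-Q water (purified laboratory water) for 7 days and 4 drank water with 25 mM ZnSO4 (zinc). Every mouse, controls included, had then received tumor necrosis factor (TNF), and cells were taken 3 hours later, so there is no library without TNF. The question is whether the zinc water changes the PC transcriptome under TNF, and here whether these regulators differ and move with the genes they control. The labels give no age, sex or batch. On GRCm39, the genes lie at chr10:128106352-128128735 (Stat2), chr11:100775924-100830450 (Stat3), chr11:53660812-53669200 (Irf1), chr7:140842619-140846398 (Irf7), chr8:121463096-121485659 (Irf8), chr14:55841028-55847812 (Irf9), chr16:10600104-10603875 (Socs1), chr11:117856905-117860898 (Socs3) and chr19:29228677-29290505 (Jak2), and the table has 1 row of counts for each gene.

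Interferons and the cytokines of the interleukin-6 family bind receptors that carry JAK kinases. The kinases phosphorylate STAT proteins, which enter the nucleus. After type I interferon, STAT2 joins IRF9 in the complex ISGF3, which binds the interferon-stimulated response element (ISRE) of antiviral genes. STAT3 carries the signal of interleukin-6 and interleukin-22, and it induces antimicrobial lectins of the Reg3 family in the gut. STAT dimers bind the gamma-activated site (GAS), and IRF1, itself induced through GAS and NF-kB sites, drives the genes of antigen presentation. SOCS1 and SOCS3 are made in response to these signals and shut the receptor complexes down. TNF acts mainly through NF-kB.

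The windows of 250 bases upstream of the canonical transcript start were read from GRCm39 with the GENCODE M39 starts. They were searched on both strands for the ISRE (GAAANNGAAA), the GAS (TTCNNNGAA) and an NF-kB motif. The 3 motifs lay in 3.32%, 7.7% and 7.62% of the 21770 windows of genes of the table. Among the members, Stat2 held the ISRE, Irf1, Irf8, Socs3 and Jak2 held the GAS, and Irf1 and Socs1 held the NF-kB motif. None of the 3 was found in the windows of Stat3, Irf7 and Irf9. The Irf9 window lies inside the gene, all 250 bases in exons of longer Irf9 transcripts, and the Socs3 window holds 173 bases of Socs3 exons, so these windows do not stand for the region before the gene. A match is a description of the letters and not a measured binding site. The windows of 4 members with a match are shown, from the side away from the gene to the base before its start, because each holds letters of a motif named above. The Irf1 window overlaps the first exon of an earlier-starting Irf1 transcript by 29 bases. All 250 bases of the Irf1 and Jak2 windows, and 214 of the Socs1 window, lie in exons of long noncoding RNA genes of the opposite strand. Capitals mark the match.
Stat2, plus strand, chr10:128106102-128106351, ISRE on the reverse strand 207 to 198 bases before the start: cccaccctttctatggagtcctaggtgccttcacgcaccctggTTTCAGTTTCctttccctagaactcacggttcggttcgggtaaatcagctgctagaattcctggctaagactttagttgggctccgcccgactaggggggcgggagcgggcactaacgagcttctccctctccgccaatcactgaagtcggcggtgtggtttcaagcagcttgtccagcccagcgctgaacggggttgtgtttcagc
Irf1, plus strand, chr11:53660591-53660840, GAS 90 to 82 and NF-kB motif 13 to 4 bases before the start: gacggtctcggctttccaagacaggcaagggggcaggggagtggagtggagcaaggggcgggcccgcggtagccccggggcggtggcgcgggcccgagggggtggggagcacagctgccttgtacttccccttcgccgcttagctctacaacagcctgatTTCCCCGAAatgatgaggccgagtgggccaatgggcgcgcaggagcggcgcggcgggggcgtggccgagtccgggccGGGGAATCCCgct
Socs1, minus strand, chr16:10603876-10604125, NF-kB motif 148 to 139 bases before the start: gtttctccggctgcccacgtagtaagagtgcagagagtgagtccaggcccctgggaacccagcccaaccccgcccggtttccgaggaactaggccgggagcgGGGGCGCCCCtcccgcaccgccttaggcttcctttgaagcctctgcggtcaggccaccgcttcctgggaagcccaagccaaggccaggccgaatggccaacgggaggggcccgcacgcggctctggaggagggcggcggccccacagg
Jak2, plus strand, chr19:29228427-29228676, GAS 138 to 130 bases before the start: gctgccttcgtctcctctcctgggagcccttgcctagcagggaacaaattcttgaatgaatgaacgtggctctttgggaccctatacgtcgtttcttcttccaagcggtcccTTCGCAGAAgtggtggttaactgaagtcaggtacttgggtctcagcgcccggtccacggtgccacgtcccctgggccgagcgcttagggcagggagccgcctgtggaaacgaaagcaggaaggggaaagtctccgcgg
The matches within a window did not overlap each other. Irf1 was the member that held 2 of the 3 motifs, with the NF-kB match nearest the start, inside the 29 bases of Irf1 exon. The same search over the target lists used below found the ISRE in 11 of 26 ISGF3 targets (42.3%) and in 8 of 30 IRF1 and interferon-gamma targets (26.7%), and the NF-kB motif in 12 of 26 NF-kB targets (46.2%). It found the GAS in 2 of 25 STAT3 targets (8.0%), close to its share in all windows.

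One library must be described before the values. Zinc replicate 3 held the lowest CPM (counts after scaling the libraries to 1 size) of all 8 libraries in 30.0% of the tested genes, 3209 of 10707, and in 9 of the 9 members. Its total of 13167276 counts lay inside the range of the others, 10623658 to 15101627. Its summed PC markers (Lyz1, Defa24 and 7 others) were 470300 CPM, against 392500 to 494900 CPM in the other zinc libraries. In Milli-Q water replicates 1 to 4 they were 421100, 410100, 737100 and 576300 CPM, so replicates 3 and 4 lay above every zinc library. The summed markers of crypt stem cells were 1167, 853 and 554 CPM in zinc replicates 1, 2 and 4 and 1244 CPM in zinc replicate 3, so 3 of 4 zinc mice lay above the Milli-Q water range of 485.2 to 667.5 CPM. Those of enterocytes were 471, 421 and 355 CPM in zinc replicates 1, 2 and 4 and 847.5 CPM in zinc replicate 3, beside 340.0 to 392.6 CPM in Milli-Q water, and again 3 of 4 zinc mice lay above the range. The immune marker sum was 13.4 CPM against 14.7 to 28.8, with 7 of 21 immune markers, Cd8a and Trac among them, at 0 in every library, and 8 of 11 stromal markers, Col1a1 among them, were also at 0 in every library. Milli-Q water replicates 3 and 4 differed in another way, since their levels fell with transcript length (Spearman's rho across genes -0.23 and -0.24, against 0.02 to 0.18 in the other libraries). What part these differences have in the results was not tested. In bulk RNA, fewer cells of a type and less RNA per cell cannot be told apart. Each comparison of the groups is therefore given with and without zinc replicate 3.

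Levels are given per length of the canonical transcript, so that genes can be set beside each other. In Milli-Q water, Socs3 stood highest with 217 ± 9.31 CPM per kilobase (SD, n = 4), above 99.1% of the tested genes. Stat3 followed with 75.8 ± 7.83 and Irf1 with 72.9 ± 5.38 CPM per kilobase. These neighbours did not separate, since Stat3 was above Irf1 in 1 of 4 Milli-Q water libraries. Jak2 came next with 22.7 ± 2.40, then Irf8 with 14.4 ± 0.994 and Stat2 with 12.5 ± 1.11 CPM per kilobase. Irf8 was above Stat2 in 4 of 4 libraries, although their ranges overlapped and their order turned when the union of all exons was taken as the length. Irf7 with 9.10 ± 1.12 and Irf9 with 8.25 ± 0.902 CPM per kilobase overlapped as well. Socs1 was the lowest at 1.08 ± 0.259 CPM per kilobase, above 21.9% of tested genes, and rested on 33 to 63 counts in each Milli-Q water library. The 2 SOCS genes thus lay at opposite ends of the members, Socs3, an inhibitor of the receptors that signal through STAT3, at the top and Socs1, an inhibitor of interferon receptors, at the bottom.

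**Figure D1:**
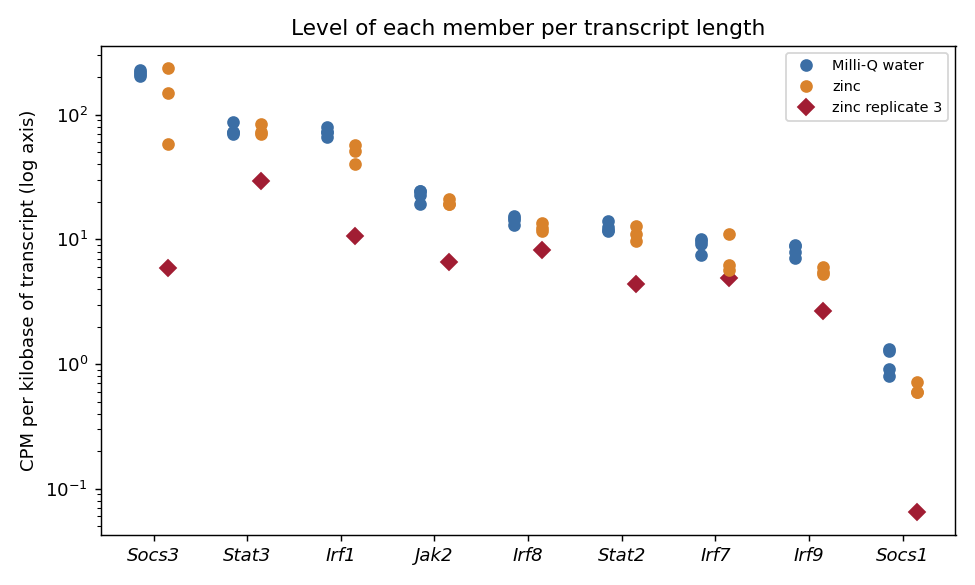
Level of each member in CPM per kilobase of canonical transcript (log axis), 1 point per library, members ordered by their Milli-Q water mean. Socs3 leads at 217 and Socs1 closes at 1.08 CPM per kilobase, and the point of zinc replicate 3 (diamond) lies below all others of each member.

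Across all genes, the edgeR quasi-likelihood test with Benjamini-Hochberg adjustment called 0 of 10707 genes between zinc and Milli-Q water (0.0%), and 1092 had an unadjusted p under 0.05. DESeq2 called 4 genes and limma-voom 0. Without zinc replicate 3, edgeR called 0 of 10755 (0.0%), with 867 at an unadjusted p under 0.05, DESeq2 called 11 and limma-voom 1. None of the 9 members was called in either fit. Their log2 fold changes, zinc over Milli-Q water, were below 0 in 9 of 9 with 8 libraries, where 49.2% of all tested genes were, and in 8 of 9 without zinc replicate 3, against 49.4%. The median over the members was -0.46 and -0.25, beside 0.01 and 0.00 over all tested genes. An unadjusted p under 0.05 with a lower level was seen for 1 member with 8 libraries, Irf9, against 3.78% of all genes. It was seen for 3 without zinc replicate 3, Irf1, Irf9 and Socs1, against 3.72% of all genes. In these 3 genes, every zinc library lay below every Milli-Q water library, with and without zinc replicate 3. That held for 3.12% of all genes with 8 libraries and for 3.99% without it. The sums of stem cell and enterocyte markers, higher in 3 of the 4 zinc mice, moved with the same groups, and their part was not tested.

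Irf9, the DNA-binding partner of STAT2 in ISGF3, was at 21.9, 24.8, 19.9 and 25.3 CPM in Milli-Q water replicates 1 to 4 (values of other genes follow the same order). In zinc replicates 1 to 4 it was at 16.8, 15.3, 7.37 and 14.7 CPM. The 2 groups were separated by the gap between 16.8 and 19.9 CPM, and zinc replicate 3 lay well below the other zinc mice. The log2 fold change was -0.77 (SE 0.229, edgeR, adjusted p = 0.485) with 8 libraries and -0.56 (SE 0.138, adjusted p = 0.50) without zinc replicate 3. The 95% interval of the latter ran from -0.86 to -0.26, and its unadjusted p was 0.00141. Irf9 shares 282 exon bases on the same strand with Rnf31, whose counts were 211% of those of Irf9, so reads there are uncertain. The log2 fold change of Rnf31 was -0.29 and -0.05.

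Stat2, the partner of IRF9, was at 53.2, 63.4, 52.4 and 56.3 CPM in Milli-Q water and at 57.3, 43.9, 19.8 and 49.4 CPM in zinc. Zinc replicate 1 lay inside the Milli-Q water range and the groups overlapped. On the log2 scale the fold change was -0.41 (SE 0.269, edgeR, adjusted p = 0.553) and, without zinc replicate 3, -0.16 (SE 0.130, adjusted p = 0.782). Leaving out a further library moved the latter to -0.10 (Milli-Q water replicate 2), -0.27 (zinc replicate 1) or -0.08 (zinc replicate 2). Within a library the ratio of Irf9 to Stat2 CPM was 0.411, 0.391, 0.380 and 0.449 in Milli-Q water and 0.293, 0.348, 0.372 and 0.297 in zinc. The zinc ratios were all under the Milli-Q water ratios, by the least in zinc replicate 3, where both genes were low by a like factor. This ratio was chosen after its values were seen and was given no test.

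Irf7, which amplifies the type I interferon response, was at 17.98, 23.2, 22.0 and 24.0 CPM in Milli-Q water and at 26.5, 14.9, 11.9 and 13.7 CPM in zinc. Zinc replicate 1 had the highest value of all 8 libraries, and the other 3 zinc mice lay under every Milli-Q water mouse. The log2 fold change was -0.38 (SE 0.239, edgeR, adjusted p = 0.534) and -0.25 (SE 0.210, adjusted p = 0.794) without zinc replicate 3. This value depended on single mice: without zinc replicate 1 it was -0.69 with 8 libraries and -0.60 with zinc replicate 3 also left out, while of the 7 libraries it was -0.12 without zinc replicate 2 and -0.09 without zinc replicate 4. Phrf1 lies on the opposite strand with 63 shared exon bases and counts that were 177% of those of Irf7.

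Irf1, a driver of antigen presentation genes, was at 141, 156, 170 and 156 CPM in Milli-Q water and at 110, 122, 22.9 and 86.1 CPM in zinc. Every zinc mouse was below the lowest Milli-Q water mouse, and zinc replicate 3 was far below the other zinc mice. Zinc over Milli-Q water, the log2 fold change was -0.87 (SE 0.393, edgeR, adjusted p = 0.485) and -0.55 (SE 0.140, adjusted p = 0.50) without zinc replicate 3, with a 95% interval of -0.85 to -0.24 and an unadjusted p of 0.00186. The smaller change had the smaller error, the SD of the zinc mice being 44.2 CPM with that library and 18.2 CPM without it.

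Irf8, a factor best known from myeloid cells that also answers to interferon-gamma, was at 66.3, 72.5, 75.8 and 77.9 CPM in Milli-Q water and at 68.9, 62.5, 41.8 and 59.0 CPM in zinc. Only zinc replicate 1 reached into the Milli-Q water range. For Irf8 the log2 fold change was -0.33 (SE 0.166, edgeR, adjusted p = 0.491) and -0.20 (SE 0.119, adjusted p = 0.698) without zinc replicate 3. Irf8 had 596 to 1218 counts per library. Of the 21 immune markers 1 passed the filter, their sum was 13.4 to 28.8 CPM, and the part of immune cells in the Irf8 level was not tested.

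Stat3 was at 399, 332, 333 and 320 CPM in Milli-Q water and at 319, 332, 135 and 387 CPM in zinc. Zinc replicates 1, 2 and 4 spanned 319 to 387 CPM beside 320 to 399 CPM in the Milli-Q water mice. For Stat3 the log2 fold change was -0.24 (SE 0.277, edgeR, adjusted p = 0.726) with 8 libraries and 0.00 (SE 0.130, adjusted p = 0.992) without zinc replicate 3. The 95% interval of the latter ran from -0.28 to 0.28 and rests on 7 mice, so a change of Stat3 in either direction is not excluded.

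Jak2, a kinase of the interferon-gamma receptor, was at 135, 134, 125 and 106 CPM in Milli-Q water and at 106, 115, 36.6 and 107 CPM in zinc. Milli-Q water replicate 4 was level with the zinc mice, and zinc replicate 3 stood alone. The log2 fold change was -0.46 (SE 0.301, edgeR, adjusted p = 0.552) and -0.19 (SE 0.123, adjusted p = 0.723) without zinc replicate 3.

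Socs3 varied most among the zinc mice. It was at 607, 549, 585 and 567 CPM in Milli-Q water, a coefficient of variation of 4.29%, the smallest of the 9 members. In zinc it was at 155, 630, 15.7 and 400 CPM. Zinc replicate 2 exceeded every Milli-Q water mouse, while zinc replicates 1, 3 and 4 lay below all of them. For Socs3 the log2 fold change was -0.94 (SE 0.733, edgeR, adjusted p = 0.600) and -0.54 (SE 0.321, adjusted p = 0.702) without zinc replicate 3. With 8 libraries it was -1.60 without zinc replicate 2 and -1.66 with a replicate block. Of the 7 libraries, it was -0.15 without zinc replicate 1 and -1.05 without zinc replicate 2, so the size of the change rested on single zinc mice. The ratio of Socs3 to Stat3 CPM within a library was 1.52, 1.65, 1.76 and 1.77 in Milli-Q water and 0.486, 1.90, 0.116 and 1.04 in zinc, so in zinc replicate 1 Socs3 was low beside an ordinary Stat3 level.

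Socs1 was at 4.31, 2.98, 4.18 and 2.64 CPM in Milli-Q water and at 2.34, 1.94, 0.211 and 1.94 CPM in zinc. The groups did not overlap, though the gap from 2.34 to 2.64 CPM lies between libraries with 25 and 33 counts. For Socs1 the log2 fold change was -1.14 (SE 0.518, edgeR, adjusted p = 0.485) and -0.76 (SE 0.300, adjusted p = 0.588) without zinc replicate 3, with a 95% interval of -1.40 to -0.11.

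**Figure D2:**
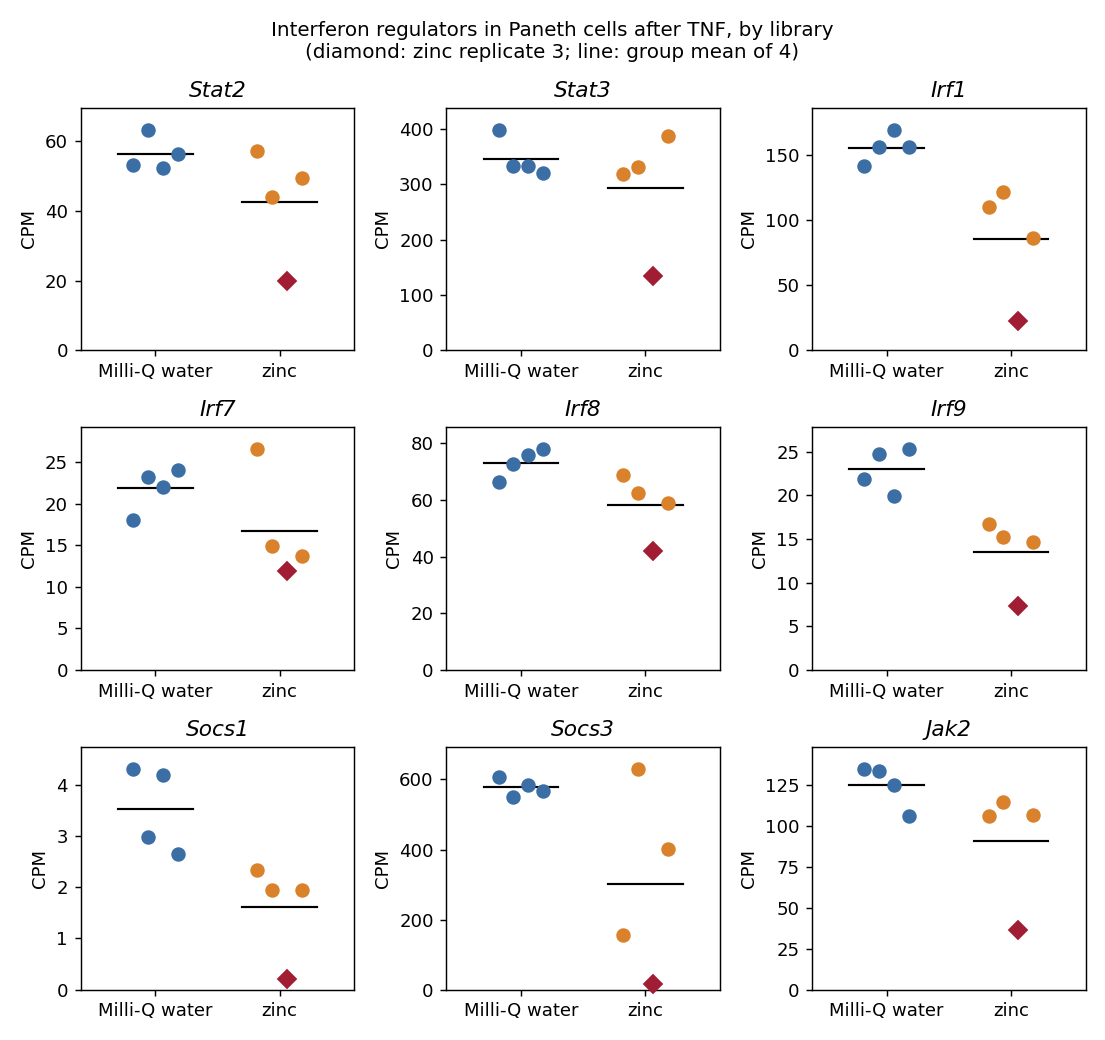
CPM of each member in the 4 Milli-Q water and 4 zinc libraries, 1 point per mouse, with the group mean of 4 as a line and zinc replicate 3 as a diamond. Every zinc point lies under every Milli-Q water point for Irf1, Irf9 and Socs1, whereas zinc replicate 2 tops all mice for Socs3 and zinc replicate 1 does so for Irf7.

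**Figure D3:**
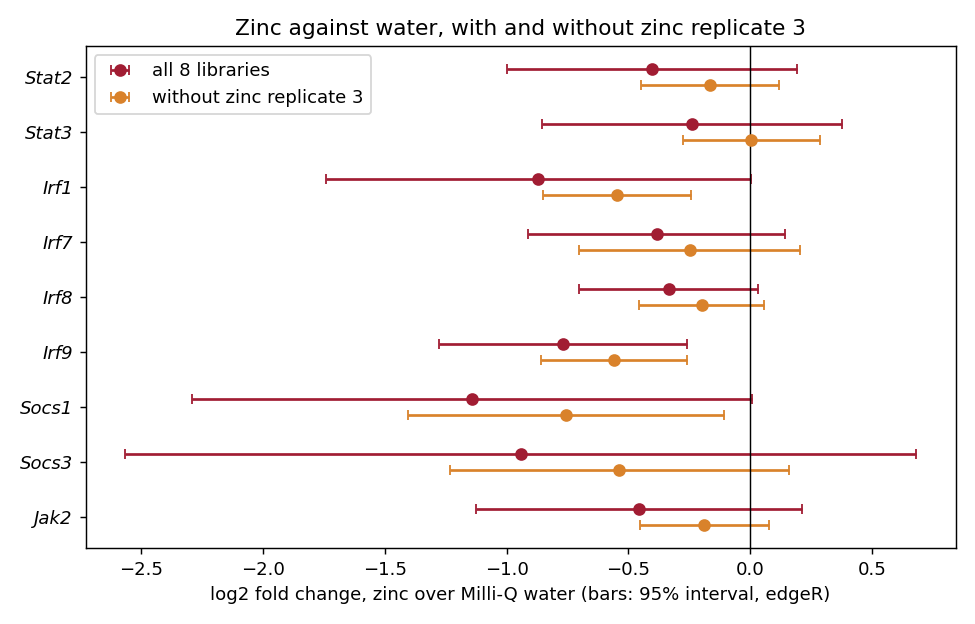
Log2 fold change of each member, zinc over Milli-Q water, with its 95% interval from edgeR, for all 8 libraries and without zinc replicate 3. Without that library the estimates lie nearer 0, Stat3 sits at 0.00, and the intervals of Irf1, Irf9 and Socs1 lie below 0, before any adjustment over genes. With all 8 libraries only the interval of Irf9 does, and those of Irf1 and Socs1 just cross 0.

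The deficit of zinc replicate 3 was unequal over the members. Against the mean of the other 7 libraries, Socs3 was 31.9-fold lower there, with 223 counts, and only 0.364% of the tested genes were as low or lower on the log2 scale. Socs1 was 13.8-fold lower on 3 counts, with a counting interval (exact Poisson) of 4.72 to 66.9-fold. Irf1 was 5.88-fold lower, at or under which 2.26% of the genes lay. Jak2 was 3.23-fold, Stat2 2.71-fold, Irf9 2.69-fold and Stat3 2.56-fold lower, each within the lowest 6.76% of genes. Irf7 and Irf8 were 1.72-fold and 1.65-fold lower, where 15.6% and 16.0% of the genes lay. The feedback genes and Irf1 thus had the largest deficits, and the factors Irf7 and Irf8 the smallest. Among the other 7 libraries the highest value was 4.06 times the lowest for Socs3 and 2.23 times for Socs1, but 1.25 times for Stat3 and 1.27 times for Jak2.

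**Figure D4:**
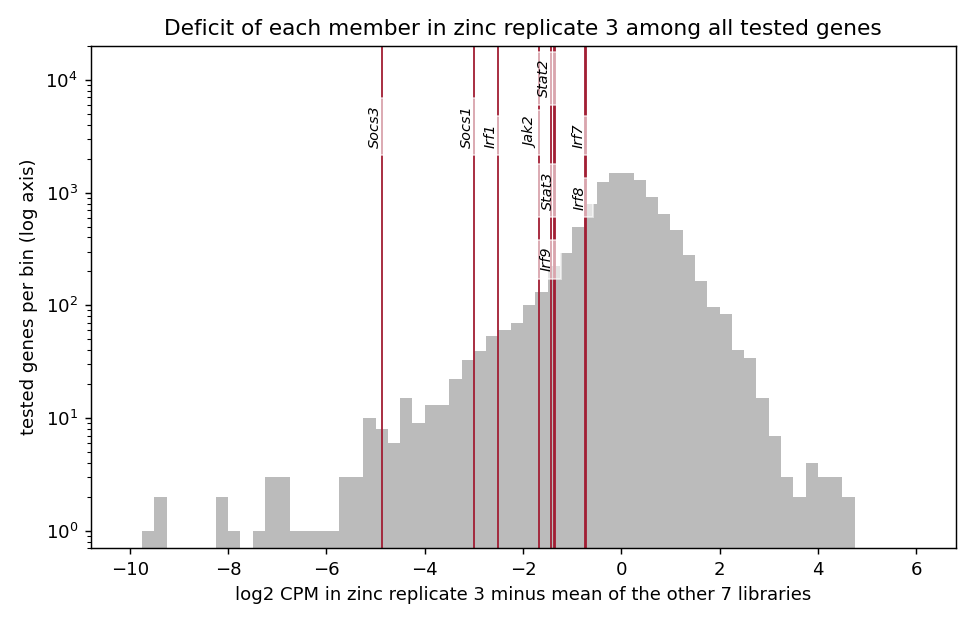
Histogram over all tested genes of the log2 CPM in zinc replicate 3 minus the mean of the other 7 libraries (genes per bin on a log axis), with a line for each member. Most genes lie around 0, and all 9 members lie left of it, from Irf8 at -0.71 to Socs3 at -4.86.

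The other genes of the pathway were taken from lists. Of 12 receptor genes 11 were tested and 0 called. Their median log2 fold change was -0.22 with 8 libraries and -0.01 without zinc replicate 3. Il10rb, the chain shared by the receptors of interleukin-10, interleukin-22 and interferon-lambda, was at 37.6 to 46.9 CPM in Milli-Q water and at 35.5, 32.1, 30.5 and 34.5 CPM in zinc. Every zinc value was lower, with a log2 fold change of -0.37 (SE 0.125, adjusted p = 0.485) and -0.33 without zinc replicate 3. Il22ra1, its partner for interleukin-22, was at 31.8 to 46.4 CPM in Milli-Q water and at 69.2, 52.7, 52.4 and 37.6 CPM in zinc, 0.42 and 0.43 on the log2 scale. Il6st, the shared signalling chain of the interleukin-6 family, was at 173 to 238 CPM in Milli-Q water, at 230 to 253 CPM in zinc replicates 1, 2 and 4 and at 43.3 CPM in zinc replicate 3. Ifnar2, a chain of the type I interferon receptor, was at 8.34 to 10.6 CPM in Milli-Q water and 6.18 to 8.06 CPM in zinc, -0.32 and -0.24, while Il6ra had 12.8 CPM in zinc replicate 3 against 2.06 to 4.51 CPM elsewhere. Osmr, the oncostatin M receptor, is named because of its values. It was at 34.4 to 64.4 CPM in Milli-Q water, at 15.9, 37.8 and 57.7 CPM in zinc replicates 1, 2 and 4, and at 0 counts in zinc replicate 3.

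Of the 8 other kinases and STATs 7 were tested and 0 called. The median was -0.05 with 8 libraries and 0.21 without zinc replicate 3. Jak1, the kinase common to these receptors, was at 155 to 166 CPM in Milli-Q water and at 162, 152, 90.03 and 167 CPM in zinc. Stat5a was at 3.28 to 4.68 CPM in Milli-Q water and 7.40, 5.09, 3.93 and 4.27 CPM in zinc, with log2 fold changes of 0.47 and 0.59. It shares 142 exon bases with Stat3 on the opposite strand. Stat5b was 0.25 higher with 8 libraries and Tyk2 0.22 higher without zinc replicate 3, and neither passed the test.

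Of the other IRF genes 7 of 8 were tested and 0 called, with medians of 0.16 and 0.28. Irf3, a constitutive factor, was at 26.6 to 38.3 CPM in Milli-Q water and 27.6 to 29.0 CPM in zinc, zinc replicate 3 included. Irf2 had log2 fold change -0.13 with 8 libraries. Irf2bp1, a corepressor partner of IRF2, was at 13.0 to 17.7 CPM in Milli-Q water and 24.0, 19.3, 41.4 and 18.2 CPM in zinc, all above, with log2 fold changes of 0.78 (SE 0.254, adjusted p = 0.485) and 0.46. Irf2bp2 was 0.28 higher on the log2 scale without zinc replicate 3. In zinc replicate 3, then, Irf3 lay inside the range of the other libraries, and Irf2bp1 lay above it.

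All 17 other SOCS and feedback genes were tested and 0 were called, with medians of 0.03 and 0.03. Usp18, which blocks the type I interferon receptor, was at 7.28 to 12.5 CPM in Milli-Q water and 5.53, 2.22, 1.05 and 7.74 CPM in zinc, with log2 fold changes of -1.37 (SE 0.485, adjusted p = 0.485) and -1.05 (SE 0.329, adjusted p = 0.50). Isg15 was at 1.44 to 3.32 CPM in Milli-Q water and 0.632 to 1.59 CPM in zinc, -1.10 with 8 libraries. Ptpn2, a phosphatase of JAK and STAT proteins, was at 32.6 to 41.5 CPM in Milli-Q water and 27.4, 27.6, 10.5 and 25.9 CPM in zinc, -0.40 without zinc replicate 3. On the other side, Pias3 had log2 fold changes of 0.52 and 0.33 and Trim24 of 0.25 and 0.36.

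Targets were set beside the regulators in 4 lists: genes of ISGF3, of IRF1 and interferon-gamma, of STAT3 and of NF-kB. None of their tested genes was called in either fit. Of 18 tested ISGF3 targets 16 were lower with 8 libraries and 15 without zinc replicate 3, with medians of -0.69 and -0.42. Oas1a, an antiviral sensor enzyme, was at 11.1 to 12.3 CPM in Milli-Q water and 5.15, 7.17, 5.97 and 7.82 CPM in zinc, -0.85 (SE 0.170, adjusted p = 0.485) and -0.80. Oasl2 had log2 fold changes of -1.14 and -0.93, while the RNA sensor Rigi had 0.02 and 0.23, Bst2 0.05 with 8 libraries and Zbp1 0.16 without zinc replicate 3. Of the IRF1 and interferon-gamma targets 23 of 23 tested were lower with 8 libraries and 21 of 25 without zinc replicate 3, with medians of -0.67 and -0.31. Psmb9 of the immunoproteasome was at 11.2 to 14.95 CPM in Milli-Q water and 10.3, 10.1, 3.93 and 8.87 CPM in zinc, and Tap1, the peptide transporter, had -0.40 without zinc replicate 3. Nlrc5, the activator of MHC class I genes, had -1.53 with 8 libraries. Among the 25, Iigp1 had 16, 21, 16 and 3 counts in Milli-Q water and 0, 0, 0 and 2 in zinc. It passed the filter on low counts only without zinc replicate 3, and only through its Milli-Q water counts. Iigp1 is counted among the 21, but a gene let in by its Milli-Q water counts could hardly be other than lower, so it is no support. The 25 thus hold genes that were not among the 23 tested with 8 libraries. Cxcl10 and Tapbp were 0.36 and 0.14 without zinc replicate 3.

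Of 21 tested STAT3 targets 19 were lower with 8 libraries and 17 without zinc replicate 3, with medians of -0.60 and -0.28. Reg3b, an antimicrobial lectin, was at 1568, 1272, 1998 and 1142 CPM in Milli-Q water and 289, 605, 154 and 1270 CPM in zinc. Its log2 fold change was -1.37 (SE 0.533, adjusted p = 0.485) and -1.05 without zinc replicate 3, and zinc replicate 4 lay inside the Milli-Q water range. Cebpd was at 52.3 to 76.1 CPM in Milli-Q water and 36.2, 35.4, 2.88 and 49.3 CPM in zinc, -0.62 without zinc replicate 3. Reg3a had -1.43 with 8 libraries on few counts. Birc5 and Ccnd1, genes of cell division, had log2 fold changes of 1.45 and 0.72 with 8 libraries, with zinc replicate 4 at 0.484 and 6.45 CPM, not above the Milli-Q water mice. Of 23 tested NF-kB targets 23 were lower with 8 libraries and 17 without zinc replicate 3, with medians of -0.50 and -0.18. Nfkbiz was at 26.8 to 46.0 CPM in Milli-Q water and 9.09, 18, 7.79 and 28.6 CPM in zinc, -1.30 and -1.06. Ier3 had -0.73 without zinc replicate 3 and Cxcl2 -2.36 with 8 libraries, whereas the subunits Relb and Nfkb1 had 0.17 and 0.13 without zinc replicate 3. Zinc replicate 3 was the lowest library in 22 of the 23 NF-kB targets, 21 of 23 IRF1 and interferon-gamma targets, 16 of 21 STAT3 targets and 14 of 18 ISGF3 targets, where 30.0% of all genes were lowest. Its median deficit was -3.68 on the log2 scale in NF-kB targets, -2.57 in IRF1 and interferon-gamma targets, -2.32 in STAT3 targets and -1.48 in ISGF3 targets, beside 0.04 over all tested genes. Icam1, an NF-kB target also named because of its values, had 1057 to 2173 counts in every library except zinc replicate 3, which had 0.

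Whether the members followed these targets from mouse to mouse was asked over the 7 libraries without zinc replicate 3, since that library would carry any correlation. Each of the 9 members was set against the mean log2 CPM of each of the 4 lists, 36 relations in all, with exact permutation tests. For each member the list with its highest r is given. None passed after adjustment, and the smallest adjusted p was 0.107. That value belonged to Irf1 with the IRF1 and interferon-gamma targets, with Pearson's r = 0.92 (exact permutation p = 0.00298, n = 7) and Spearman's rho = 0.93 (exact permutation p = 0.00675, adjusted 0.121). Without the 2 libraries farthest from the median r was 0.78, and with the group means removed it was 0.69. The list median in place of the mean gave 0.70.

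Stat2 correlated with the ISGF3 targets with r = 0.84 (exact permutation p = 0.0194, adjusted 0.181, n = 7) and rho = 0.64 (exact permutation p = 0.139), and with the group means removed r was 0.80. Its partner Irf9 had r = 0.79 with the same list (exact permutation p = 0.0351, adjusted 0.181) and rho = 0.61 (exact permutation p = 0.167), but 0.33 with the group means removed, so this relation lay between the groups more than within them. Irf7 had r = 0.75 (exact permutation p = 0.0530, adjusted 0.184) and rho = 0.46 (exact permutation p = 0.302), and 0.72 within groups. Without the 2 farthest libraries the r of Stat2, Irf9 and Irf7 was 0.76, 0.58 and 0.65.

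Stat3 and its targets had r = 0.59 (exact permutation p = 0.178, adjusted 0.293, n = 7) and rho = 0.93 (exact permutation p = 0.00675, adjusted 0.121). With the group means removed r was 0.77. Without the 2 farthest libraries, Milli-Q water replicate 1 and zinc replicate 1, r fell to 0.10. Socs3 and the STAT3 targets had r = 0.83 (exact permutation p = 0.0669, adjusted 0.195) and rho = 0.32 (exact permutation p = 0.498). This relation rests on zinc replicate 1, where Socs3 was at 155 CPM and the list was also lowest of the 7. Without that library r was 0.17, and without the 2 farthest it was -0.05. Of the 3 genes most like Socs3 over the 7 libraries, Pim1 (r = 0.97), a kinase gene induced by STAT3, is on the STAT3 list. It was at 17.0 CPM in zinc replicate 1 against 29.2 to 44.7 CPM in the other 6. Pim1 was picked by its r and is low in that same library, so it is no separate support.

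Jak2 and Socs1 had their highest r with the NF-kB targets. Jak2 had r = 0.86 (exact permutation p = 0.0218, adjusted 0.181, n = 7) and rho = 0.86 (exact permutation p = 0.0238, adjusted 0.171), with 0.73 within groups and 0.80 without the 2 farthest libraries. Socs1 had r = 0.88 (exact permutation p = 0.0123, adjusted 0.181) and rho = 0.75 (exact permutation p = 0.0663), with 0.69 within groups and 0.49 without the 2 farthest, Milli-Q water replicates 1 and 3. Over the 4 Milli-Q water libraries alone r was 0.96, and over zinc replicates 1, 2 and 4 alone it was -0.96. In those zinc libraries Socs1 had 25, 27 and 24 counts, nearly level, so the sign there carries no weight. With the list median in place of the mean, r fell to 0.54 for Jak2 and 0.36 for Socs1. By rank, Socs1 went more with the IRF1 and interferon-gamma targets (rho = 0.89, exact permutation p = 0.0123, adjusted 0.148, r = 0.82) and the ISGF3 targets (rho = 0.82, exact permutation p = 0.0341), and by list median with the STAT3 targets (r = 0.81), so no single list stood out for it. Irf8 was nearest the IRF1 and interferon-gamma targets, with r = 0.80 (exact permutation p = 0.0335, adjusted 0.181) and rho = 0.71 (exact permutation p = 0.0881), with 0.47 within groups and 0.53 without the 2 farthest.

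**Figure D5:**
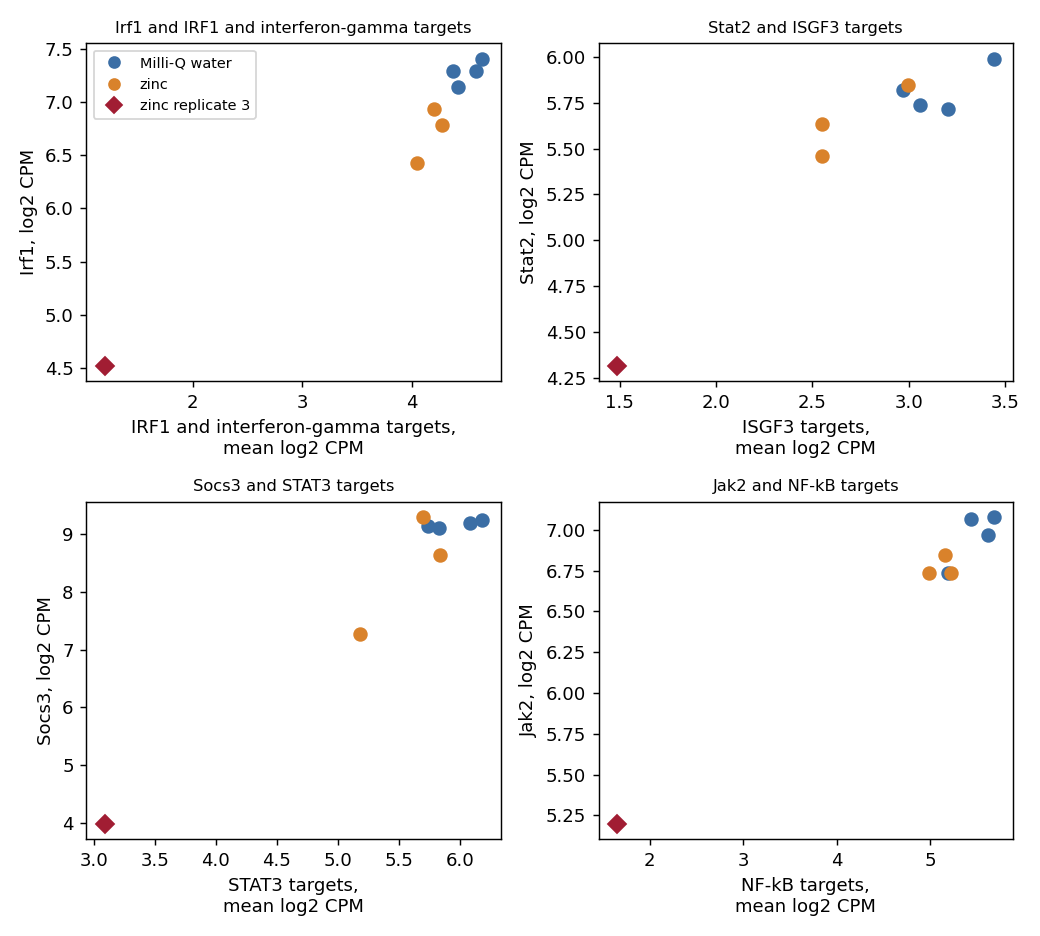
Log2 CPM of Irf1, Stat2, Socs3 and Jak2 against the mean log2 CPM of the list with the highest r for each, 1 point per library. Zinc replicate 3 (diamond) lies far from the other 7 and was left out of r, and in the Socs3 panel zinc replicate 1 alone stands apart among the remaining 7.

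Among the 36 pairs of members none passed adjustment either, and the smallest adjusted p was 0.252. The highest r were 0.85 for Irf1 with Irf8 (exact permutation p = 0.0143, rho = 0.79 with exact permutation p = 0.0480, n = 7) and 0.85 for Irf7 with Irf8 (exact permutation p = 0.0212, rho = 0.75 with exact permutation p = 0.0663). Without the 2 farthest libraries they were 0.92 and 0.40, and with the group means removed 0.62 and 0.86. Stat3 ran against Irf7 with r = -0.67 (exact permutation p = 0.0909, adjusted 0.364, rho = -0.71 with exact permutation p = 0.0881), and without the 2 farthest -0.58. The genes most like each member over the same 7 libraries, by r of log2 CPM, were seldom of the pathway. They included Agpat2 and Prmt2 for Irf1, Ankrd10, Brd9 and Kdm1b for Stat2, Synj1, Tmem63b and Sf3b3 for Stat3, and Rap2b, Krcc1 and Snapc3 for Irf7. For Irf8 they were Zc3h7a, Gm15417 and Zfp944, and for Irf9 Ikzf5, H2-Q4 and Fastkd3. For Socs1 they were Wtap, Ggnbp2 and Ccng2, for Socs3 Cacnb1, Me1 and Pim1, and for Jak2 Lyrm1, Arhgef5 and Rassf2. Their r ran from 0.93 to 0.98, and of those named Pim1 alone stood in a list used here. Each was picked as highest among all tested genes over only 7 libraries, so high r values follow from the choice and were given no test.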

How the data were processed

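Bulk RNA-seq libraries of sorted PCs from 8 mice, 1 mouse each, were assigned to Milli-Q water (n = 4) or zinc (n = 4) by their labels. The deposited table holds raw counts, 1 row for each Ensembl gene and 1 column for each library. The labels name a stranded polyadenylated RNA kit, and the submitters' processing notes name FastQC 0.12.0, STAR 2.7.10a, DESeq2 and mm39. The counter, its annotation, its strand setting and its rule for multiply matching reads are not given in the sources used here. Of 55414 identifiers 54749 matched GENCODE M39 on GRCm39, and the 665 others held 0.00443% of counts. Strand matters for Irf1, Irf7, Socs1, Socs3, Stat3 and Jak2, which overlap genes of the opposite strand.

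In R 4.3.3, edgeR 4.0.16 was used to test the counts by quasi-likelihood, after filterByExpr and TMM scaling. The filter kept 99.89% of counts. P-values were adjusted over all tested genes (threshold 0.05). SE is the log2 fold change divided by the square root of F. CPM used TMM-scaled library sizes, on which a count of 0 allows up to 3 counts, or 0.179 to 0.369 CPM. Such limits and intervals cover counting error only. Log2 CPM had a prior count of 2. The biological coefficient of variation was 0.269, and 0.180 without zinc replicate 3. No 2 libraries agreed within sampling noise (smallest chi-square per degree of freedom 6.38 over 28 pairs). Scripts were tested on simulated data. Alternatives were DESeq2 1.42.0, limma-voom 3.58.1 with sample weights, other scalings and filters, a replicate block and leaving out libraries.

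The members, the lists and the tests were chosen with earlier results of these data known. Named were all members, the 2 genes of smallest p per direction of each list and fit, and the 3 genes most like each member, and any others are said to be chosen after their values were seen. Of the genes this rule names, 3 are not reported here.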

Additional observations from a re-analysis of the deposited data

Results flagged for a closer look

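In 26 searches over groups of 4 libraries (each member and each list mean in each group), 5 had a library farther from its nearest neighbour than Dixon's 95% critical value for 4 samples allows, where chance gives about 1.3. Each was zinc replicate 3, on the log2 CPM scale. That library had already been singled out and the genes and list means vary together, so these 5 describe 1 library and are no independent support. Irf9 was at 2.91 there, with the other zinc libraries between 3.89 and 4.08. Socs1 was at -1.45, against 1.06 to 1.32, and rested on 3 counts. Jak2 was at 5.20, against 6.73 to 6.85. The mean of the IRF1 and interferon-gamma targets was at 1.203, against 4.04 to 4.27. The mean of the NF-kB targets was at 1.65, against 4.99 to 5.23. Socs3 had a larger deficit in that library but did not pass, since zinc replicate 1 was low as well. Which property of zinc replicate 3 goes with these levels was not tested.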

How the results depend on the processing

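With 8 libraries the count of genes called was 0 with edgeR and 4 with DESeq2, and 0 in each fit that left out 1 library. Without zinc replicate 3 it was 0 with edgeR, 176 with no filter on low counts, 11 with DESeq2 and 1 with limma-voom, and 0 to 54 when a further library was left out (3 without Milli-Q water replicate 4 and 54 without zinc replicate 4). The cause was not tested. No member was called in any of these fits, except Irf1 without zinc replicate 3 and with no filter (-0.56, adjusted p = 0.0295), which makes 1 of the 9. Of 297 alternative estimates for members, 286 kept direction and side of the threshold, and the 10 reversed ones all belong to Stat3, which lay near 0. With 8 libraries Stat3 ran from -0.4052 to 0.0046 when 1 library was left out, the latter without zinc replicate 3. From that value it turned to -0.0052 with no filter, -0.0001 with DESeq2, -0.0539 with limma-voom and -0.0121 with a replicate block, and to -0.0137 to -0.0914 when Milli-Q water replicates 2, 3 or 4 or zinc replicate 4 was left out (-0.0178, -0.0137, -0.029 and -0.0914, with 0.0759 the highest of such values, without Milli-Q water replicate 1). It was -0.0765 without Milli-Q water replicates 3 and 4 as well, an alternative chosen after seeing the data. With 8 libraries limma-voom with sample weights gave values nearer 0, -0.53 for Irf1, -0.27 for Stat2, -0.19 for Irf8 and -0.25 for Jak2. Same-numbered libraries did not deviate together over the tested genes (correlations -0.03 to 0.03). No pairing by number was seen, though a weak one could be missed. The replicate block called 0 genes with 8 libraries and 0 without zinc replicate 3. Of the 36 relations, 0 passed under every alternative run, leaving out each library included. Depth limits Socs1, which had 3 to 63 counts per library.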
